A study of Mus musculus with 6 samples.

Results

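The genes described here encode the mitochondrial respiratory chain and ATP synthase, together with the RNAs of the mitochondrial genome. They were taken from the count table by symbol: every row starting with Nduf, Uqcr, Cox followed by a digit, Atp5 or mt-, plus Sdha to Sdhd, Cyc1 and Cycs, with rows named as pseudogenes dropped. This gave 115 of the 13226 genes in the table, of which 97 are in the nuclear genome and 18 in the mitochondrial genome. Of the nuclear genes, 79 encode subunits of complexes I to V or cytochrome c, and 18 encode assembly factors and other proteins that share the prefix. The mitochondrial rows hold 7 mRNAs, 2 rRNAs and 9 tRNAs, and 6 of the 13 mitochondrial mRNA genes were not analysed here (mt-Co2, mt-Co3, mt-Atp6, mt-Atp8, mt-Nd3 and mt-Nd4l).

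RNA came from whole tibialis anterior (TA) muscles of male C57BL/6 mice aged 8 weeks, 7 days after intramuscular injection of an adeno-associated vector of serotype 6 with a CMV promoter. One TA muscle received AAV6:Yap-shRNA and the contralateral TA of the same mouse a control vector, with 3 muscles in each group. The control libraries are titled as empty vector, while their vector field reads AAV6:LacZ-shRNA, so the control is called control here. Yap, encoded by Yap1, is a transcriptional co-activator of the Hippo pathway that acts through TEAD factors, and the comparison asked what lowering it does to the transcripts of adult muscle. Whole muscle also holds fibroblasts, vessels, nerve and blood, so fewer cells of a type and less RNA per cell cannot be told apart.

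The chain passes electrons from NADH through complex I, or from succinate through complex II, to ubiquinone, then through complex III and cytochrome c to complex IV, where oxygen is reduced. Complexes I, III and IV pump protons across the inner membrane, and complex V, ATP synthase, uses the gradient to make ATP. Both genomes supply subunits: the mitochondrial DNA encodes core membrane subunits, and nuclear genes encode the rest, many under the control of the factors Nrf1, Gabpa (NRF2), Esrra and Yy1 with the co-activator Ppargc1a. Skeletal muscle is among the tissues richest in these transcripts.

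Promoters of the nuclear members are shown first because they can carry sites for the factors of such shared control. The TEAD element was searched in them as well. Distal enhancers, where Yap is reported to act mainly with TEAD factors, were not searched, so control by TEAD cannot be read from promoters alone. RefSeq promoters (250 bases before to 50 after the start, GRCm38.p6) were matched by symbol for 79 of the 97 nuclear genes and searched on both strands for exact letters, each motif counted on its own where matches overlapped. The Nrf1 core GCATGCG was in 11 of the 79 promoters (13.9%, against 6.63% of 9532 promoters of protein-coding genes in the table), and the Yy1 core ATGGCGG also in 11 (13.9% against 8.68%). The Gabpa core CCGGAAG was in 19 (24.1% against 18.5%), and the ERR half-site AAGGTCA in 7 (8.86% against 2.93%). The TEAD element CATTCCA was in 2 (2.53% against 2.8%), a share near that of all genes. The stretches below are written 5′ to 3′ on the strand of the gene, with matches in capitals, for the cytochrome c oxidase subunit gene Cox6a1 and the ATP synthase subunit gene Atp5k (Nrf1, matched on both strands with overlap), the c-subunit gene Atp5g3 (ERR, on the opposite strand) and the complex I genes Ndufa8 and Ndufa9 (TEAD, in Ndufa8 on the opposite strand).
Cox6a1, chr5:115349060-115349149, minus strand: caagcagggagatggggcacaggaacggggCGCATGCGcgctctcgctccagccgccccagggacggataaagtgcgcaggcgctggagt
Atp5k, chr5:108434400-108434489, minus strand: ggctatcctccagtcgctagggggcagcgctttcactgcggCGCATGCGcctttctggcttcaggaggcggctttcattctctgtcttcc
Atp5g3, chr2:73911327-73911416, minus strand: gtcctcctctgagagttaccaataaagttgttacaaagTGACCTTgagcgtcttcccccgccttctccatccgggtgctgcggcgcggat
Ndufa8, chr2:36049353-36049442, minus strand: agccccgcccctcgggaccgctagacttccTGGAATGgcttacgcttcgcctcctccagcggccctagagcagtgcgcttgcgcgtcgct
Ndufa9, chr6:126849267-126849356, minus strand: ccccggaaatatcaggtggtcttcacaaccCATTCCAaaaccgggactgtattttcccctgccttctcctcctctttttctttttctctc
The first capital lies 161 bases (Cox6a1), 49 bases (Atp5k), 52 bases (Atp5g3), 74 bases (Ndufa8) and 182 bases (Ndufa9) before the RefSeq start. A match is a run of letters only, and no binding was measured.

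Library totals ran from 11987167 to 12710393 counts. Yap1 (chr9:7931999-8004596, minus strand) was at 71.2, 65.3 and 68.4 CPM (counts scaled to a library of equal size, by TMM) in the control muscles and 32.0, 23.9 and 39.5 CPM in the Yap-shRNA muscles, so the groups did not overlap and the knockdown mean was 46.5% of control. The log2 fold change was -1.10 ± 0.16 (SE, n = 3 per group), with an adjusted p of 0.436 over all genes (edgeR, quasi-likelihood, Benjamini-Hochberg); the exact two-sided permutation test gave p = 0.10, the smallest that 3 against 3 allows. The 8 muscle fibre markers summed to between 125348 and 150545 CPM in every library. Libraries stood apart in other markers: 5 tendon genes summed to 639 CPM in control 1 and 529 CPM in Yap-shRNA 3 against 126 to 174 CPM elsewhere, 7 fibroblast genes to 2601 and 3025 CPM in the same libraries against 1286 to 1545 CPM, and 6 liver genes to 402 CPM in control 3 against 0.4 to 48.1 CPM. Of 8 adipocyte markers, 6 were highest in Yap-shRNA 3, with a median deviation from the gene means of 1.95 on the log2 scale. Fabp4, another of the 8, was lowest there at 205 CPM. The sum of the 8 did not stand apart, at 638 CPM in Yap-shRNA 3 against 567 to 688 CPM elsewhere. All 10 macrophage markers had a log2 fold change above 0 (median 0.34), and 9 of them were lowest in control 3. Their sum was highest in control 1, at 238, 148 and 100 CPM in controls 1 to 3 and 172, 207 and 222 CPM in Yap-shRNA 1 to 3. The part of all these markers in the results below was not tested.

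No respiratory chain gene was called different between the groups. Of the 115 members, 0 had an adjusted p under 0.05, as had 0 of all 13226 genes (0%) in the same quasi-likelihood test, and DESeq2, which called 5 genes, called 0 members as well. At an unadjusted p under 0.05, 1 member was higher in the Yap-shRNA muscles (0.885% of all genes) and 0 were lower (0.869% of all genes). With DESeq2, 0 members were higher (89 of all 13226 genes) and 0 lower (46 of all 13226 genes) at that p. The groups did not overlap for 3 members, all above control (2.56% of all genes), and for none below control (2.71% of all genes). The differences were small throughout: the 79 nuclear-encoded subunits ran from -0.24 (Ndufab1) to 0.20 (Cox4i2) on the log2 scale, with a median of -0.065 against a median SE of 0.136, and 68 of the 79 were below 0 (51.1% of all genes). The 7 mitochondrial mRNAs ran from 0.016 (mt-Nd6) to 0.19 (mt-Nd5), with a median of 0.090 and all 7 above 0. The median over all genes was -0.0029. Genes of a complex share libraries and are not replicates, and the counts of signs rest on the same 6 muscles.

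**Figure D1:**
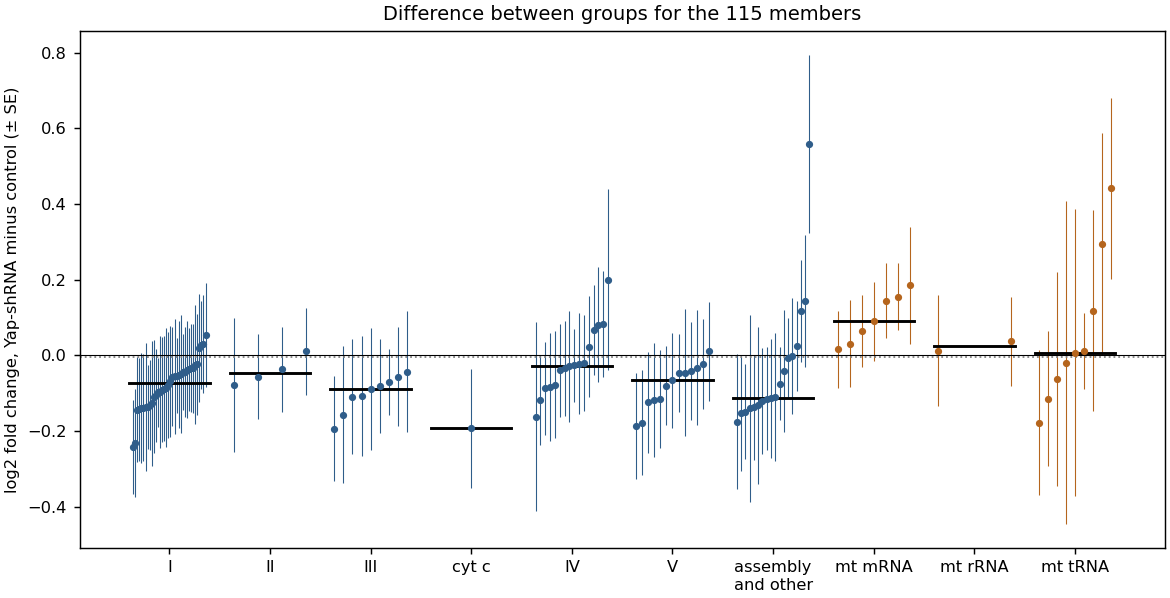
Log2 fold change of Yap-shRNA over control (y axis) for the 115 members, grouped by complex and genome (x axis). Each point is a gene with its SE, derived from the F statistic of the edgeR test. Black bars are the group medians, and the dotted line is the median of all genes (-0.0029). Most points lie within 0.2 of 0, and Cox11, the highest at 0.56, is the only member with an unadjusted p under 0.05.

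Among the nuclear-encoded subunits the libraries of the control group differed more than the groups did. Summed over the 79 genes, the level was 27736, 37445 and 34167 CPM in controls 1 to 3 and 33037, 31584 and 30656 CPM in the Yap-shRNA muscles. The means were 33116 ± 4939 CPM and 31759 ± 1201 CPM (SD, n = 3), so the knockdown muscles lay between the lowest and the highest control. Control 1 was the lowest of the 6 libraries for 67 of the 79 genes (22.3% of all genes) and control 2 the highest for 58 (23.6% of all genes). All 3 knockdown values lay inside the control range for 64 of the 79 (81%), against 34.6% of all genes. Taking each gene's log2 CPM relative to its mean over the 6 libraries, the median deviation was -0.24 in control 1, 0.22 in control 2, 0.097 in control 3, and 0.051, -0.060 and -0.089 in Yap-shRNA 1 to 3. The same order, control 1 below control 3 below control 2, held for 60 of the 79 genes (75.9%, against 24.7% of all genes).

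**Figure D2:**
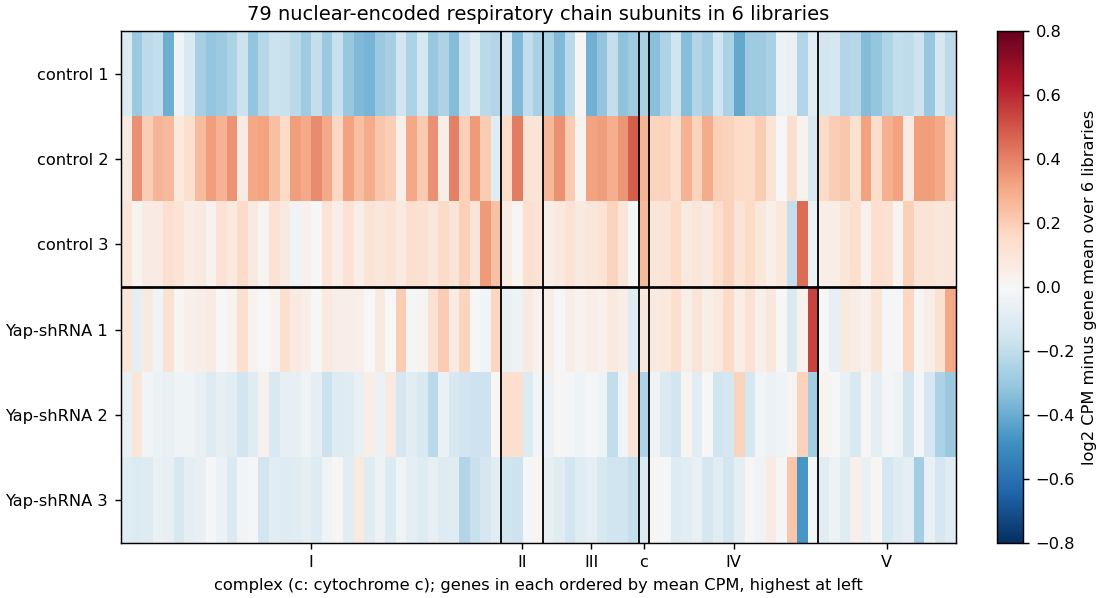
Log2 CPM minus the gene's mean over the 6 libraries (colour) for the 79 nuclear-encoded subunits (columns, by complex and then by level) in each library (rows). The row of control 1 is low across all complexes and the row of control 2 high, with median deviations of -0.24 and 0.22, while the 3 knockdown rows lie between them.

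The sign of the comparison depended on these control libraries. Without control 1, the subunit median was -0.19, 77 of the 79 were below 0, and 21 of the 115 members were lower in the knockdown muscles at an unadjusted p under 0.05 (3.41% of all genes), with 0 higher (3.78% of all genes). The 21 included Cyc1, Cycs, Ndufs3, Ndufs4, Ndufv2 and Uqcrh, and the lowest adjusted p among members was 0.554 in the quasi-likelihood test. Without control 2, the median was 0.041, 21 of the 79 were below 0 and 0 members were lower (1.44% of all genes) or higher (0.94%) at that p. Neither fit called a member. Over all genes, those with short transcripts moved the same way. Without control 1, the 1284 genes with a principal transcript under 1000 nt had a median of -0.10, with 842 below 0. The 2854 of 1000 to 2000 nt had one of -0.080, with 1888 below 0, and the 8989 longer ones 0.034, with 3799 below 0. Subunit medians in these length classes were -0.19, -0.19 and -0.16. Without control 2, the medians over all genes were 0.047, 0.031 and -0.012.

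**Figure D3:**
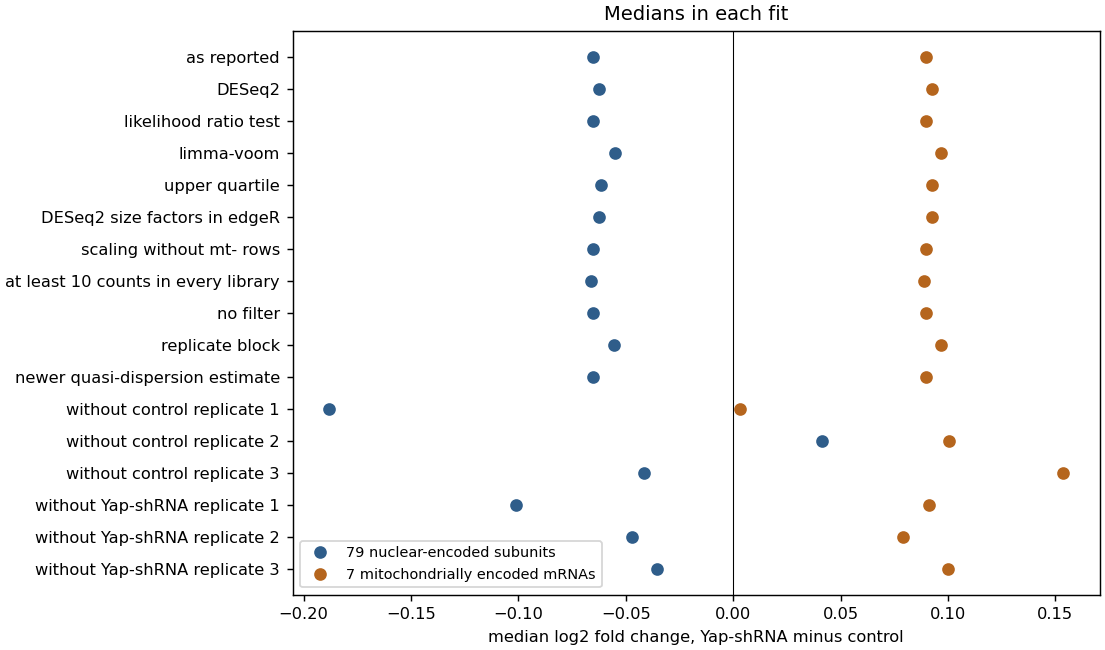
Median log2 fold change (x axis) of the 79 nuclear-encoded subunits and of the 7 mitochondrial mRNAs in the reported fit and each alternative (y axis). Changes of tool, scaling or filter left the subunit median between -0.066 and -0.055, whereas leaving out control 1 or control 2 moved it to -0.19 and 0.041.

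The ratio of control 2 to control 1 was 1.38 in the median over the 79 subunits (lowest 0.977 in Cox4i2, highest 1.70 in Uqcrb) and 0.986 over all genes. It also moved with transcript length. Over all genes the median ratio was 1.21 for the 1283 whose principal transcript was under 1000 nt, 1.15 for the 2852 of 1000 to 2000 nt and 0.923 for the 9021 longer ones. Over the subunits it was 1.43 for the 48 under 1000 nt, 1.34 for 22 in the middle class and 1.29 for 9 of 2000 nt or more. Across genes, Spearman's rho between length and the ratio was -0.39 over 13156 genes and -0.19 over the 79 subunits, a description over genes of the same 2 libraries. Short transcripts as a class therefore shared the direction, and the subunits, with a median length of 861 nt, lay above it in each length class. Control 1 and Yap-shRNA 3, which held the high tendon and fibroblast levels given above, had subunit median deviations of -0.24 and -0.089. The other libraries ran from -0.060 (Yap-shRNA 2) to 0.22 (control 2), and the part of these markers in the pattern was not tested.

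Complex I, the entry point for electrons from NADH, had 36 nuclear-encoded subunits here. Their summed level was 7737, 10615 and 9557 CPM in the controls and 9343, 8695 and 8569 CPM in the knockdown muscles, and 32 of the 36 had a log2 fold change below 0 (median -0.073). Ndufb9, a supernumerary subunit of the membrane arm, was at 466, 736 and 582 CPM against 541, 611 and 530.4 CPM, with control 1 lowest and control 2 highest. Core and supernumerary subunits did not separate: the 7 nuclear-encoded core genes had a median of -0.050 and the 29 supernumerary genes one of -0.077. The lowest value of any member was that of Ndufab1, the mitochondrial acyl carrier protein, at 33.5, 45.2 and 38.4 CPM against 35.7, 31.8 and 31.6 CPM (-0.24 ± 0.12, unadjusted p 0.084 in the edgeR test). Ndufb4 followed, at 23.0, 30.8 and 33.8 CPM against 26.3, 23.9 and 24.3 CPM (-0.23 ± 0.14). Control 1 lay inside the knockdown range in Ndufab1 and below all 3 knockdown libraries in Ndufb4, so the groups overlapped in both. Ndufa8 and Ndufa9, whose promoters hold the TEAD letters printed above, had log2 fold changes of -0.069 ± 0.147 and -0.033 ± 0.118.

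The 4 subunits of complex II, succinate dehydrogenase, are all nuclear-encoded and link the chain to the citric acid cycle. Sdha, the flavoprotein, was at 965, 1159 and 1094 CPM in controls and 1012, 1145 and 939 CPM in knockdown muscles. Sdhb, the iron-sulfur subunit, spread the most of the complex, at 440.4, 746 and 569 CPM against 545, 617 and 500.2 CPM. The log2 fold changes were -0.056 ± 0.112 and -0.079 ± 0.177, and those of the membrane anchors Sdhc and Sdhd were 0.011 and -0.037.

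In complex III, cytochrome bc1, all 9 nuclear-encoded subunits had a log2 fold change below 0 (median -0.088), and 7 of the 9 were lowest in control 1. Uqcrc1, a core protein of the matrix side, was at 1051, 1509 and 1296 CPM in controls and 1294, 1215 and 1199.5 CPM in knockdown muscles. Cyc1, the haem-carrying cytochrome c1, was at 581, 955 and 782 CPM against 739.9, 747 and 694 CPM, so every knockdown library lay above control 1 and below control 2. The largest difference of the complex was in Uqcrh, the hinge protein that assists transfer to cytochrome c, at 257, 358 and 332 CPM against 310.1, 256 and 262 CPM (-0.19 ± 0.14). Cycs, cytochrome c itself, was at 22.4, 32.4 and 32.2 CPM against 28.6, 22.7 and 24.8 CPM (-0.19 ± 0.16). Near-identical copies of 33.7% of the Cycs transcript (at least 98% identity over at least 75 nt) lie in 7 other genes, so its count may be split.

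Complex IV, cytochrome c oxidase, had 16 nuclear-encoded subunits, with a median log2 fold change of -0.028 and 11 of the 16 below 0. Cox6a2, the heart and skeletal muscle form of subunit VIa, was the most abundant at 942, 1345 and 1267 CPM in controls and 1246, 1164 and 1201 CPM in knockdown muscles (0.023 ± 0.134). Cox4i1, the general form of subunit IV, was at 811, 1096 and 1035 CPM against 1024, 889 and 959 CPM (-0.034 ± 0.126). The muscle paralogues dominated their pairs in every library when levels were taken per kilobase of the principal transcript. Cox6a2 made up 97.3% to 97.6% of the sum with the ubiquitous Cox6a1, Cox8b 95.97% to 97.2% of the sum with Cox8a, and Cox7a1 73.7% to 77.5% of the sum with Cox7a2. These shares did not separate the groups: that of Cox7a1 was 75.9% ± 1.5 in controls and 75.3% ± 1.8 in knockdown muscles (SD, n = 3). The hypoxia-linked paralogues were scarce, with Cox4i2 at 0.318% to 0.536% of the sum with Cox4i1 and Ndufa4l2 at 1.35% to 2.15% of the sum with Ndufa4. Cox4i2 had the highest log2 fold change of the subunits, at 3.42, 3.34 and 3.53 CPM against 5.29, 2.99 and 3.59 CPM (0.20 ± 0.24); Yap-shRNA 1 alone was high. Cox7c was listed at only 2.79 to 5.25 CPM, and near-identical copies of 58.3% of its transcript lie in 2 other genes, so its level is uncertain.

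**Figure D4:**
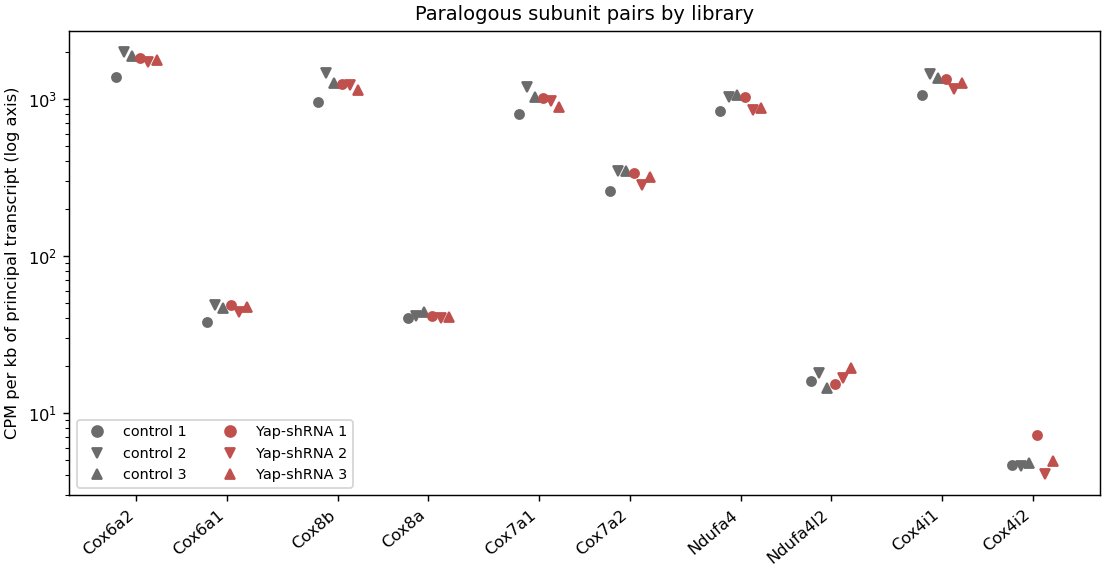
Level per kilobase of principal transcript (CPM per kb, log axis) of paralogous pairs of complex IV subunits in each library, grey for control and red for Yap-shRNA, with the marker shape giving the replicate number. The muscle forms Cox6a2, Cox8b and Cox7a1 lie above their partners in all 6 libraries, and the groups overlap in every gene drawn.

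Complex V had 13 nuclear-encoded subunits, 12 of them with a log2 fold change below 0 (median -0.065). Atp5b and Atp5a1, the beta and alpha subunits of the catalytic head, were the most abundant nuclear members. Atp5b was at 3500.2, 4314 and 4022 CPM in controls and 3885, 3941 and 3637 CPM in knockdown muscles, a log2 fold change of -0.046 ± 0.103. Atp5a1 was at 2765, 3484 and 3147 CPM against 2899, 3039 and 2950.3 CPM (-0.080 ± 0.105). The 5 genes of the F1 part, head and central stalk, had a median of -0.032. The 8 of the membrane part and peripheral stalk had one of -0.12. At their low end were Atp5k (-0.19 ± 0.14), an Nrf1-motif gene shown above, and Atp5h (-0.18 ± 0.14). Atp5g3, the more abundant of the 2 c-ring genes in the table, was at 785, 1072 and 989 CPM against 972, 884 and 864 CPM, and Atp5g1 at 23.0, 30.4 and 28.4 CPM against 32.9, 21.6 and 24.8 CPM. Of Atp5h, 77.6% of the transcript has a near-identical copy in another gene.

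Assembly factors insert cofactors and join subunits, most of them without staying in the mature complex. The class held 18 genes of assembly factors and other proteins, 7 of complex I, 9 of complex IV and 2 named for ATP synthase. Their median log2 fold change was -0.11, and 14 were below 0. Cox11 (chr11:90638173-90644931, plus strand), a copper chaperone for complex IV, was at 4.28, 3.01 and 5.91 CPM in controls and 6.88, 6.30 and 6.30 CPM in knockdown muscles, so that each knockdown library lay above each control. Its log2 fold change was 0.56 ± 0.24 with an unadjusted p of 0.0413 and an adjusted p of 1.00 in the edgeR test, and its exons overlap those of Tom1l1, so reads of the shared part may belong to either gene. Cox18, an insertase for a complex IV core subunit, also did not overlap, at 9.50, 8.78 and 9.44 CPM against 9.56, 10.6 and 9.89 CPM, with a log2 fold change of only 0.12 ± 0.13. Cox17, which delivers copper, had the lowest value of the class, at 11.0, 13.4 and 12.7 CPM against 13.3, 8.52 and 11.1 CPM (-0.17 ± 0.18).

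The mitochondrially encoded mRNAs are transcribed from the circular genome as long polycistronic RNAs and cut apart, so genes of the same strand do not each have their own promoter. Of the 7 mRNAs, mt-Nd6 alone is on the minus strand. Together the 18 mitochondrial rows took 15.3%, 15.2% and 16.7% of all counts in controls and 17.4%, 17.6% and 16.3% in knockdown muscles. The means were 15.7% ± 0.84 and 17.1% ± 0.72 (SD, n = 3), a difference of 1.34 percentage points with p = 0.20 in the exact two-sided permutation test; control 3 lay above Yap-shRNA 3. The nuclear members took 3.35% ± 0.37 and 3.26% ± 0.15. The difference was about the same without the rRNA rows (1.34 points, p = 0.20, exact permutation test).

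mt-Cytb, the mitochondrial subunit of complex III, was the most abundant member, at 30509, 37079 and 38401 CPM in controls and 37576, 38162 and 37054 CPM in knockdown muscles (0.090 ± 0.105). mt-Co1 (chrM:5328-6872, plus strand), the catalytic subunit of complex IV, was the only mRNA of the 7 whose groups did not overlap, at 26109, 26617 and 28906 CPM against 30281, 31491 and 29089 CPM (0.15 ± 0.09, unadjusted p 0.114 in the edgeR test). Control 3 lay just under the lowest knockdown library. mt-Nd2, a membrane subunit of complex I, was at 21704, 21339 and 25230 CPM against 26402, 25058 and 24014 CPM, and mt-Nd1 at 27772, 30885 and 32725 CPM against 33422, 31652 and 30533 CPM. Control 1 was lowest for 5 of the 7, and without it their median log2 fold change fell from 0.090 to 0.0031. The library order was not that of the nuclear genes, since control 2 had a median deviation of -0.034 here against 0.22 there.

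mt-Nd5 and mt-Nd4 moved apart in control 2. mt-Nd5 (chrM:11742-13565, plus strand) was at 13892, 9479 and 14781 CPM in controls and 15016, 13837 and 14530 CPM in knockdown muscles, so control 2 alone was low. mt-Nd4 (chrM:10167-11544, plus strand), which lies before it on the same strand, was at 15767, 20573 and 19922 CPM against 19733, 19040.3 and 18730 CPM, with control 2 highest. The ratio of mt-Nd5 to mt-Nd4 was 0.461 in control 2 and 0.727 to 0.881 in the other 5 libraries. The ratio of mt-Nd5 to mt-Nd6, which is encoded on the opposite strand and overlaps the end of mt-Nd5, was 1.44 in control 2 and 2.00 to 2.25 in the others. With control 2 low, mt-Nd5 had the highest log2 fold change of the 7 (0.19 ± 0.15). Near-identical copies of 63.6% of the mt-Nd4 transcript and 31.3% of the mt-Co1 transcript lie in another gene, and how such reads were assigned was not given in the sources used here.

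**Figure D5:**
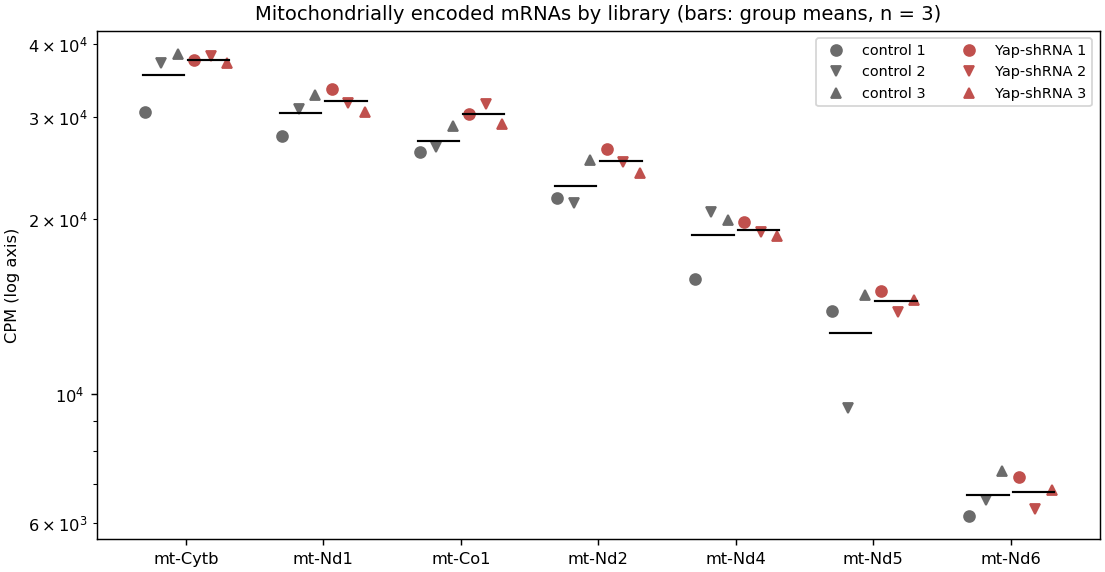
CPM (log axis) of the 7 mitochondrially encoded mRNAs in each library, grey for control and red for Yap-shRNA, with the marker shape giving the replicate number and bars the group means (n = 3). Control 1 is lowest in 5 of the 7, control 2 alone is low in mt-Nd5 at 9479 CPM, and the groups overlap except in mt-Co1.

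The 2 rRNAs and 9 tRNAs were read from libraries made of poly(A)-selected RNA, so their counts are not their cellular levels. mt-Rnr2 was at 2370.4, 2468 and 2499 CPM in controls and 2929, 2414 and 2186 CPM in knockdown muscles, and both rRNAs were highest in Yap-shRNA 1 and lowest in Yap-shRNA 3. Of the tRNAs, 6 of 9 were also highest in Yap-shRNA 1, and mt-Tc, the most counted, was at 140.5, 152 and 158 CPM against 166, 138 and 149.6 CPM. After Cox11, the highest log2 fold changes among all members were those of mt-Ta, at 3.11, 2.84 and 2.95 CPM against 5.03, 4.22 and 2.87 CPM (0.44 ± 0.24), and mt-Tp, at 8.09, 6.27 and 14.0 CPM against 15.02, 10.1 and 9.73 CPM (0.29 ± 0.29), and neither separated the groups. The 5 erythroid markers had the same extreme libraries, with a sum of 243 CPM in Yap-shRNA 1 and 101 CPM in Yap-shRNA 3; their part was not tested.

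Of 28 regulators of mitochondrial gene expression listed, 26 were in the table, with log2 fold changes from -0.23 (Mterf4) to 0.12 (Polg2). The median was -0.041, with 18 below 0 (51.1% of all genes). At an unadjusted p under 0.05, 0 were higher (0.885% of all genes) and 0 lower (0.869% of all genes). The groups did not overlap for 1 regulator, below control (2.71% of all genes), and for 0 above control (2.56% of all genes). Ppargc1a, the co-activator of mitochondrial biogenesis, was at 33.6, 29.0 and 34.1 CPM in controls and 30.8, 30.5 and 31.3 CPM in knockdown muscles. Tfam, which packages and transcribes mitochondrial DNA, was at 40.7, 48.7 and 45.5 CPM against 44.1, 47.2 and 39.7 CPM. Esrra, the nuclear receptor ERR alpha, followed the subunits' library order within the controls, at 120 CPM in control 1, 195 CPM in control 2 and 166 CPM in control 3, against 149 to 169 CPM in the knockdown muscles. The list as a whole did not follow it, with median deviations of -0.027 in control 1 and 0.029 in control 2.

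Other mitochondrial proteins did. The 26 genes of carriers, import and cristae proteins and citrate synthase had median deviations of -0.17 in control 1 and 0.16 in control 2, with 16 lowest in control 1 and 19 highest in control 2, and a median log2 fold change of -0.047 with 23 below 0. Ckmt2, mitochondrial creatine kinase, was at 1337, 2105 and 2017 CPM against 1761, 1879 and 1572 CPM, while Cs, citrate synthase, was nearly level at 1077, 1046 and 1186 CPM against 1128, 1037 and 1077 CPM. Of 38 further assembly factors, 35 were in the table, with a median of -0.039 and deviations of -0.17 and 0.21 in controls 1 and 2. The 11 genes of reactive oxygen defence and uncoupling had a median of -0.023. None of these lists had a member at an unadjusted p under 0.05 (0.885% of all genes higher, 0.869% lower). The groups did not overlap for 1 further assembly factor above control (2.56% of all genes) and 1 below (2.71% of all genes). They also did not overlap for 1 of the 26 other mitochondrial proteins, below control.

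Fibre type, with which respiratory chain content varies, was read from 11 genes each. The fast glycolytic genes had a median log2 fold change of -0.13, all 11 below 0 and 0 at an unadjusted p under 0.05. The slow and oxidative genes had a median of -0.029, with 1 of 11 higher (0.885% of all genes) and 1 of 11 lower (0.869% of all genes) at that p. The higher was Myl2, the slow myosin regulatory light chain, at 2.02, 2.76 and 1.23 CPM against 3.27, 3.84 and 3.99 CPM (0.88 ± 0.29), and the lower was Casq2, cardiac and slow calsequestrin, at 66.5, 78.8 and 70.0 CPM against 48.1, 52.1 and 55.3 CPM (-0.47 ± 0.10). Neither passed adjustment over all genes in the edgeR test.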

How the data were processed

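Poly(A)-selected RNA from 6 whole TA muscles (3 control, 3 Yap-shRNA) was sequenced from TruSeq libraries, and the authors deposited a table of read counts per gene with Ensembl identifiers and symbols. The submitters' processing notes name bcl2fastq 2.20.0.422 and GRCm38; the aligner, counter and strand setting for these libraries were not given in the sources used here. No gene in the table had a sum under 60, so a filter of 10 counts per library on average removed none.

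TMM scaling preceded a two-sided quasi-likelihood test in edgeR 4.0.16 (R 4.3.3), group as the only term, with Benjamini-Hochberg adjustment over 13226 genes and a threshold of 0.05. CPM values use the TMM-scaled totals. DESeq2 1.42.0, limma-voom 3.58.1, other scalings and filters and leaving out each library were alternatives. Before use, the fits were run on counts simulated gene by gene, to check the direction and size of the changes put in. Shifts shared by many genes of a library were not simulated, and rates of recovery and false calls are not given here. Libraries of a group differed by more than counting noise in every pair, so each counted as a replicate. Coordinates and principal transcripts came from GENCODE M21 (GRCm38), in which all 115 members matched by identifier; copies were searched with blastn, and promoters came from RefSeq (GRCm38.p6).

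Named genes were Yap1, every mitochondrial mRNA, the 2 most abundant subunits of each complex, the isoform pairs, the 5 largest rises and 5 largest falls, and every member with an unadjusted p under 0.05; values of 1 gene under this rule are not reported here, and further genes were named after their values were seen, as list or library examples. The members and lists were chosen with earlier results of these data known. The precision of each value is limited by 3 muscles a group: the biological coefficient of variation was 15.7%.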

Additional observations from a re-analysis of the deposited data

How the results depend on the processing

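No setting called a respiratory chain member. Over all genes, DESeq2 and the likelihood ratio test of edgeR each called 5 in place of 0, and leaving out single libraries gave 0 to 1. The knockdown of Yap1 was called by DESeq2 (log2 fold change -1.10, adjusted p 5.8e-07) and by the likelihood ratio test (-1.10, adjusted p 2.2e-06), and by no other setting. Other tools, scalings and filters kept the sign of all 35 named members, and the legacy and unfiltered fits were identical to the reported one. Leaving out a library moved the median of the nuclear-encoded subunits between -0.19 (without control 1) and 0.041 (without control 2), and that of the mitochondrial mRNAs between 0.0031 (without control 1) and 0.15 (without control 3).

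The sign turned in 21 named members, only on leaving out a library. Their ranges were, for the mitochondrial mRNAs, -0.0052 to 0.15 (mt-Cytb), -0.079 to 0.10 (mt-Nd4) and -0.040 to 0.090 (mt-Nd6). For complexes I to III they were -0.23 to 0.098 (Ndufb9), -0.14 to 0.0075 (Sdha), -0.25 to 0.13 (Sdhb), -0.18 to 0.075 (Uqcrc1) and -0.26 to 0.093 (Cyc1). For complex IV they were -0.15 to 0.053 (Cox4i1), -0.061 to 0.37 (Cox4i2), -0.036 to 0.14 (Cox6a1), -0.12 to 0.12 (Cox6a2), -0.22 to 0.065 (Cox7a1), -0.15 to 0.052 (Cox7a2), -0.055 to 0.011 (Cox8a), -0.18 to 0.11 (Cox8b) and -0.012 to 0.17 (Ndufa4l2). For complex V they were -0.16 to 0.0034 (Atp5a1), -0.12 to 0.023 (Atp5b), -0.23 to 0.081 (Atp5g1) and -0.18 to 0.031 (Atp5g3).

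The labels say that the 2 muscles of a mouse were paired but not that a replicate number marks a mouse. Deviations of same-numbered muscles correlated at -0.065, 0.20 and -0.32, and control 2 was the only library that correlated best with its own number. With the replicate number as a block, 0 genes and 0 members were called, and the medians were -0.056 for subunits and 0.097 for mitochondrial mRNAs.

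With 3 muscles a group and a median SE of 0.136 for the subunits, differences of the size seen could not be resolved. Depth did not limit the abundant members, but Cox11, Cox4i2, Cox7c and most tRNAs lie below 20 CPM. Overlapping exons (44 members) and near-identical copies (18 of 106 members searched) leave some counts uncertain. Among genes named above, copies held 62.8% of the Uqcrb transcript, 75.7% of that of Ndufs3 and 40.2% of that of Ndufb4.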

Other observations

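Ucp3, the uncoupling protein of muscle mitochondria, differed more between the 3 same-numbered pairs of muscles than between the groups. It was at 241, 123 and 88.9 CPM in controls 1 to 3 and at 257, 119 and 78.6 CPM in Yap-shRNA 1 to 3, with a log2 fold change of 0.0038 ± 0.446. Each knockdown value of Ucp3 was nearest to the control of the same number. Cat, catalase, was at 137, 103 and 107 CPM against 159, 99.6 and 94.3 CPM, so that Yap-shRNA 3 was nearer to control 2 than to control 3. Both genes were chosen after their values were seen. Over all genes only the pair numbered 2 deviated together, with correlations of -0.065, 0.20 and -0.32 for the 3 pairs.

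The 5 Schwann cell markers were lowest in control 1 (5 of 5, against 22.3% of all genes), and 4 of 5 were highest in control 2 (23.6% of all genes). These libraries were also the extremes for the nuclear-encoded subunits, and a link between the 2 was not tested. The markers summed to 94.0 and 158 CPM in controls 1 and 2, against 117 to 144 CPM in the other 4 libraries. Endothelial markers summed to 449 to 513 CPM over the 6 libraries.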
